A study of Saccharomyces cerevisiae with 6 samples.

Results

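The large subunit of the cytosolic ribosome is built from ribosomal RNA and a set of proteins whose genes are named RPL in budding yeast. A gene was a member when a probe set of the array was annotated with a single Saccharomyces cerevisiae symbol made of RPL, a number and at most a final A or B. This gave 77 probe sets for 70 genes, of 5449 S. cerevisiae genes measured in all. The 7 genes with more than 1 probe set were read from the set of highest average signal over the 6 arrays. The rule used no difference between conditions.

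Most of these proteins are encoded by a pair of genes, the A and B copies, which largely go back to a duplication of the yeast genome and often make nearly the same protein. In yeast the ribosomal protein genes are transcribed together, under activators such as Rap1, Fhl1, Ifh1 and Sfp1, in step with growth and nutrient signals, and their mRNAs are among the most abundant in the cell. Many carry introns, and some of the proteins limit the splicing of their own transcripts.

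The inhibitor group held 3 cultures of strain VTT C-10883, kept anaerobic in chemostats (vessels fed continuously with fresh medium) and exposed to hydroxymethylfurfural (HMF) and furfural, aldehydes that form when plant sugars break down. The inhibitors were introduced by a step-change of the medium. The no-inhibitor group held 3 cultures of the same strain, also anaerobic chemostats, with no treatment. The series' design text calls the samples of each condition biological replicates, and each gave total RNA for 1 array. The labels as used here state no dose, no sampling time and no dilution rate.

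All values are log2 signals of probe sets, and each log2 fold change is the mean of the inhibitor arrays minus that of the no-inhibitor arrays. The arrays also carried fission yeast probe sets, whose 95th percentile, 2.22 on every array, was taken as background. All 70 members lay above it on all 6 arrays, with mean signals of 4.63 to 13.19 and a median of 12.21. Signals of different probe sets are not ranked against each other, because each set binds with its own strength. The values had been normalized to a common scale between arrays, so a change in the total mRNA of a cell would not appear in them. Of 7 markers of growth without oxygen, with mean signals of 7.23 to 12.71, 4 were called higher with inhibitors and 1 lower at an adjusted p under 0.05, beside 19.9% of all genes called higher and 22.3% lower. ANB1 moved most (0.67, adjusted p = 0.00345 in limma), and the part of these markers' shift in the results below was not tested.

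Large subunit ribosomal protein transcripts changed little between the conditions. With inhibitors 10 of the 70 genes rose, 1 fell and 59 were not called at an adjusted p under 0.05 in limma, a linear model with pooled variance estimates, adjusted over all 5449 genes. That is 15.7% of the members, beside 42.2% of all genes tested. Of all genes, 19.9% were called higher and 22.3% lower. The largest rise, that of RPL13B, was 16.1%, and the smallest, that of RPL28, was 4.70%.

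The members' median log2 fold change was 0.01, beside -0.01 for all genes. The median size of a change, whatever its sign, was 0.04 on the log2 scale, beside 0.12 for all genes. Estimates lay above 0 for 39 members and below 0 for 31. All 70 estimates were under 1.2-fold, as were 78.5% of those of all genes. The 95% interval stayed within 1.2-fold in either direction for 64 members, or 91.4%, beside 54.0% of all genes. It stayed within 1.5-fold for all 70 members, beside 4955 of all 5449 genes. Among the 59 genes not called, the outermost interval limits were -0.39 for RPL20B and 0.35 for RPL40B. The intervals of these 2 genes and of RPL43B (-0.11 to 0.28) include changes beyond 1.2-fold.

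Other genes of high signal were called more often. Of 286 other genes with a mean signal above 11, ribosomal protein genes left out, 60 were called higher and 89 lower, or 52.1%, with a median size of change of 0.12. Of the 66 members above the same signal, 9 were called higher and 1 lower, or 15.2%, with a median size of 0.04. The median SD between replicates was 0.03 in these members and 0.04 in the other genes. The difference between these shares was not tested.

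**Figure D1:**
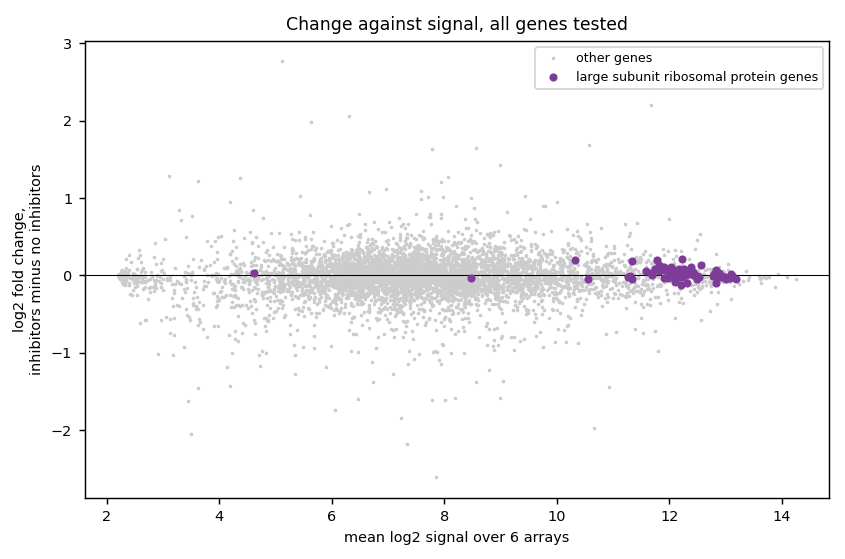
The vertical axis shows the log2 fold change, inhibitors minus no inhibitors, and the horizontal axis the mean log2 signal over 6 arrays, with 1 point per gene for 5449 genes. The large subunit ribosomal protein genes lie between -0.12 and 0.21, and 66 of the 70 have signals above 11.

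Values of the inhibitor and no-inhibitor arrays did not overlap for 22 members, 17 of them higher and 5 lower with inhibitors, or 31.4% of the 70. Over all genes the share without overlap was 55.4%. All 11 called members were among the 22. The called gene nearest to the threshold was RPL2B (adjusted p = 0.0405 in limma), and the nearest not called was RPL34A (adjusted p = 0.0528).

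**Figure D2:**
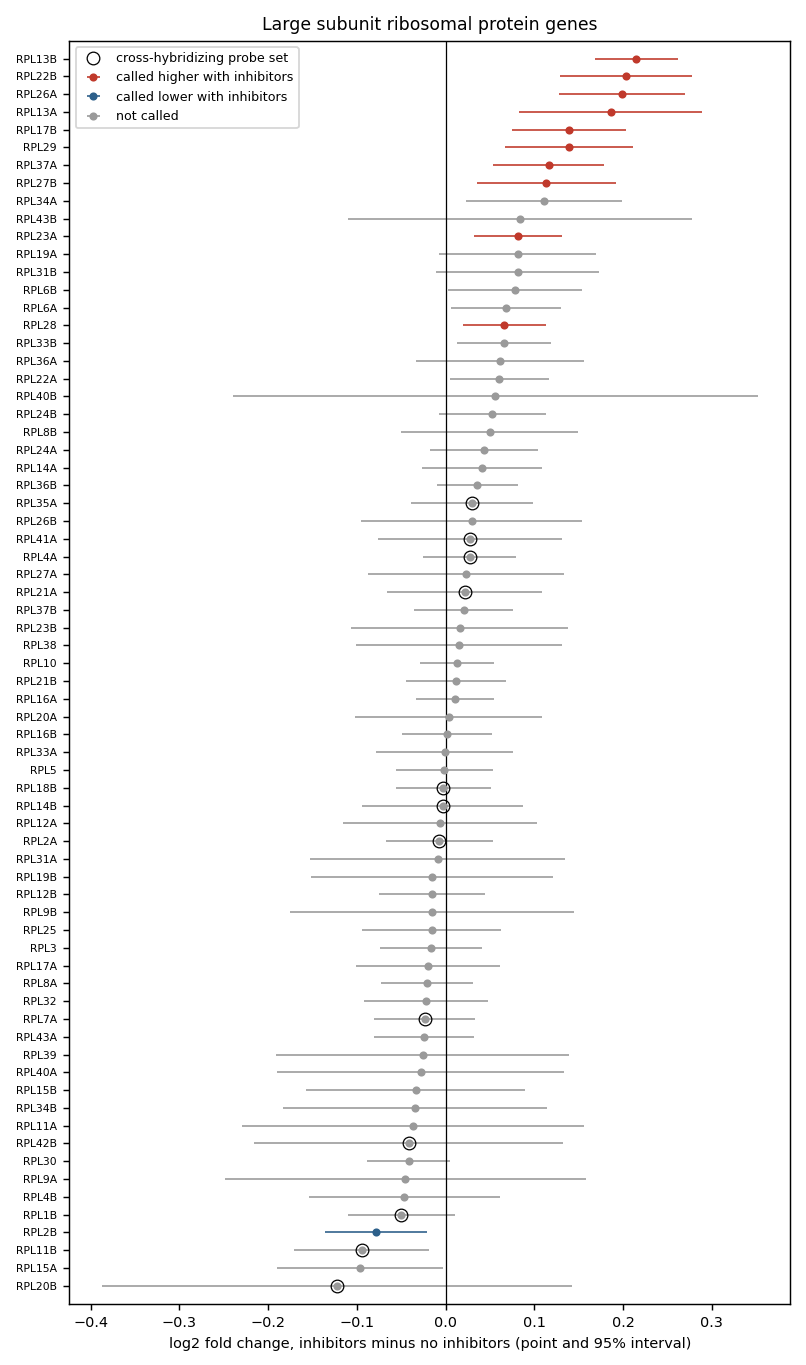
The horizontal axis shows the log2 fold change, inhibitors minus no inhibitors, with its 95% interval from limma for each of the 70 genes, ordered by size. The 10 genes called higher run from 0.07 to 0.21, the 1 gene called lower, RPL2B, stands at -0.08, and 12 genes are marked as read by probe sets that can bind transcripts of related genes.

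RPL13B and RPL13A encode protein eL13 and were the only RPL pair with both copies called. RPL13B had 12.33, 12.36 and 12.33 on the inhibitor arrays, against 12.12, 12.12 and 12.13 on the no-inhibitor arrays. It rose by 0.21 in log2 units (SE 0.02, adjusted p = 0.00113 in limma), and the gap between the groups was wider than the spread within either. RPL13A had 11.35, 11.49 and 11.43 with inhibitors, against 11.28, 11.22 and 11.22 without them. It rose by 0.19 (SE 0.04, adjusted p = 0.0176), with no overlap. This call was lost without replicate 3 of the inhibitor cultures (adjusted p = 0.0556) or without replicate 2 or 3 of the no-inhibitor cultures (adjusted p = 0.0584 and 0.0568).

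RPL22B encodes a copy of eL22, a protein that in yeast binds the RPL22B transcript and lowers its splicing. Its signals were 10.37, 10.45 and 10.45 on inhibitor arrays and 10.24, 10.20 and 10.22 on no-inhibitor arrays. Every inhibitor array stood above every no-inhibitor array, and the gene rose by 0.20 (SE 0.03, adjusted p = 0.0049 in limma). RPL22A, the other copy, had 12.04, 12.09 and 12.09 with inhibitors and 12.02, 12.01 and 12.01 without. Its groups did not overlap either, but its log2 fold change of 0.06 was not called (adjusted p = 0.0803).

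Of 13 measured genes whose proteins lie at the polypeptide exit tunnel, through which the new chain leaves the ribosome, 2 rose and 0 fell. The other 11 were not called, and the median log2 fold change was 0.03. The share called was 15.4%, near the 15.7% of all members and beside 42.2% of all genes. RPL26A, a gene of uL24 near the tunnel's mouth, had 11.87, 11.92 and 11.85 on inhibitor arrays and 11.71, 11.66 and 11.67 on no-inhibitor arrays. It rose by 0.20 (SE 0.03, adjusted p = 0.00464 in limma). RPL17B, a gene of uL22, which reaches into the tunnel, had 11.86, 11.93 and 11.89 with inhibitors, against 11.76, 11.74 and 11.76 without, and rose by 0.14 (SE 0.03, adjusted p = 0.0101). In both genes the groups stood clear of each other. RPL25, the single-copy gene of uL23, where the signal recognition particle docks, had a log2 fold change of -0.02 and RPL39, whose small protein lines the tunnel, one of -0.03, neither called.

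Of the 10 members with a single copy, 2 rose, 0 fell and 8 were not called. That is 20% called, beside 42.2% of all genes, and their median log2 fold change was -0.01. RPL29, the gene of a small protein that joins the particle late and that yeast can live without, had 12.62, 12.64 and 12.63 on inhibitor arrays and 12.51, 12.44 and 12.52 on no-inhibitor arrays. It rose by 0.14 (SE 0.03, adjusted p = 0.0143 in limma), a call lost without replicate 2 of the inhibitor cultures (adjusted p = 0.0503). The groups did not overlap, and replicate 2 of the no-inhibitor cultures was the lowest array. RPL28, the gene of uL15, in which mutations can give resistance to cycloheximide, had 12.85, 12.86 and 12.86 with inhibitors, against 12.81, 12.78 and 12.78 without. It rose by 0.07 (SE 0.02, adjusted p = 0.0367), a call that was lost whichever of the 6 arrays was left out (adjusted p of 0.0557 to 0.105).

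The other single-copy genes were not called. RPL10, whose protein is among the last to join the subunit, had 13.11, 13.11 and 13.11 with inhibitors and 13.10, 13.09 and 13.09 without, a log2 fold change of 0.01 (95% interval -0.03 to 0.05). The arrays of each group nearly coincided, and the groups did not overlap. RPL3, which reaches the peptidyl transferase centre, had -0.02 (95% interval -0.07 to 0.04). RPL30, whose protein limits the splicing of its own transcript in yeast, had 13.15, 13.17 and 13.17 with inhibitors and 13.21, 13.19 and 13.22 without. Its groups did not overlap, at a log2 fold change of -0.04 (95% interval -0.09 to 0.00, adjusted p = 0.126 in limma). RPL32 and RPL38 had log2 fold changes of -0.02 and 0.01.

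Of the remaining rises, RPL37A had 12.44, 12.47 and 12.41 with inhibitors and 12.33, 12.30 and 12.34 without, and rose by 0.12 (SE 0.02, adjusted p = 0.0158 in limma), a call lost without replicate 2 of the no-inhibitor cultures (adjusted p = 0.051). RPL27B had 11.92, 11.99 and 11.99 with inhibitors and 11.84, 11.82 and 11.89 without, and rose by 0.11 (SE 0.03, adjusted p = 0.0354). RPL23A, a gene of uL14 on the face that meets the small subunit, had 12.23, 12.22 and 12.20 with inhibitors and 12.12, 12.13 and 12.15 without, and rose by 0.08 (SE 0.02, adjusted p = 0.0231). In each of these 3 genes every inhibitor array lay above every no-inhibitor array. Among the 6 fits that each left out 1 array, the call of RPL27B held without replicate 1 of the inhibitor or replicate 3 of the no-inhibitor cultures, and that of RPL23A without replicate 3 of either group. In the other 4 fits the adjusted p was 0.0968 to 0.103 for RPL27B and 0.0554 to 0.0710 for RPL23A.

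RPL2B, a gene of uL2, which lies near the peptidyl transferase centre, was the 1 member called lower. It had 12.04, 12.08 and 12.07 with inhibitors, against 12.13, 12.13 and 12.17 without, and fell by 0.08 in log2 units (SE 0.02, adjusted p = 0.0405 in limma). The groups did not overlap, but leaving out any 1 array ended the call (adjusted p of 0.0719 to 0.0969). RPL15A had an estimate of -0.10 that was not called (adjusted p = 0.0899). RPL11B, read by a probe set that can also bind transcripts of related genes, had -0.09 (adjusted p = 0.0546), while its gene-specific set gave -0.02 (adjusted p = 0.574).

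**Figure D3:**
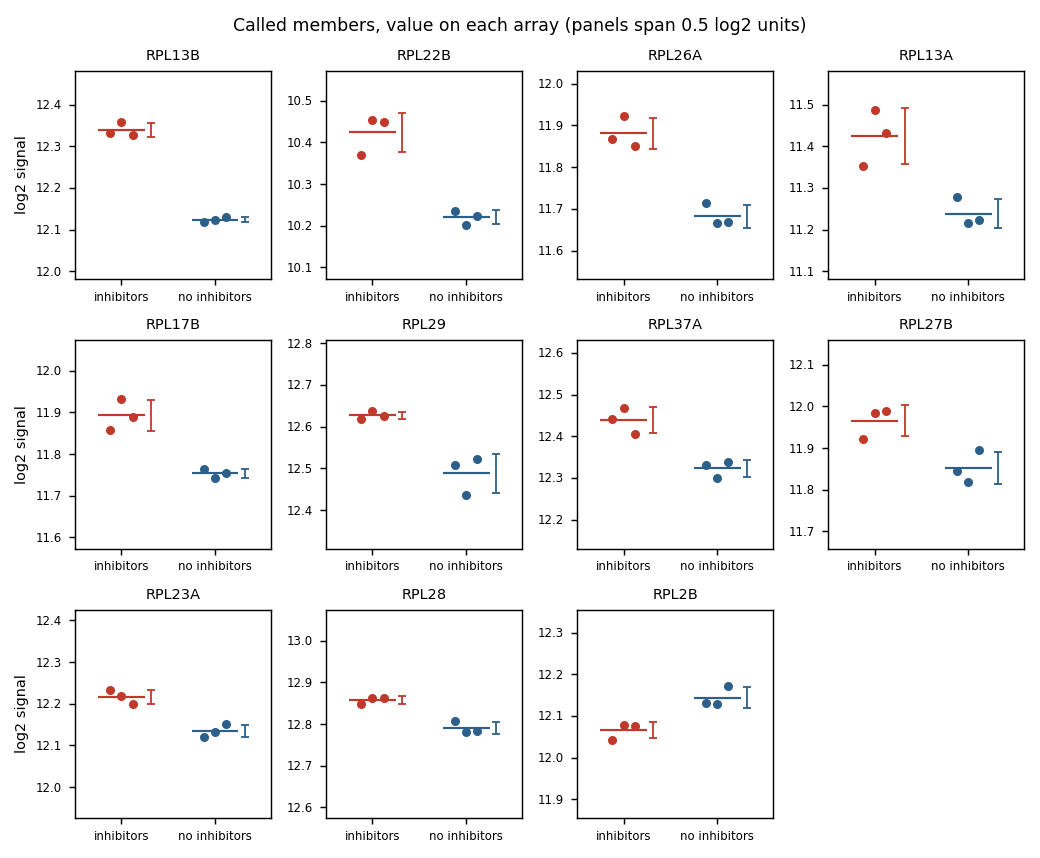
Each panel shows the log2 signal of 1 called gene on the 3 inhibitor arrays (left) and the 3 no-inhibitor arrays (right), with lines at the means and bars of 1 SD. Inhibitor arrays lie above all no-inhibitor arrays in the 10 genes called higher and below them in RPL2B.

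RPL5 and RPL11, whose proteins join the ribosome together with the smallest of its large-subunit RNAs, gave 3 genes, none called. RPL5 had a log2 fold change of 0.00 (95% interval -0.06 to 0.05), RPL11A of -0.04 and RPL11B of -0.09 with its cross-hybridizing set and -0.02 with its gene-specific one. Among 7 measured genes of proteins that join late in the cytoplasm, RPL29 rose and the other 6 were not called. Both lists are short, and the shares called were 15.7% over all members and 42.2% over all genes. RPL40A and RPL40B, which encode ubiquitin fused to eL40, had log2 fold changes of -0.03 and 0.06 (95% intervals -0.19 to 0.13 and -0.24 to 0.35). RPL12A and RPL12B, genes of uL11 at the base of the stalk, had -0.01 and -0.02.

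Members tended to be low together on certain arrays. Replicate 1 of the inhibitor cultures was the lowest inhibitor array for 53 of the 70 members, or 75.7%, beside 37.1% of all genes. Replicate 2 of the no-inhibitor cultures was the lowest of its group for 48 members, or 68.6%, beside 40.1% of all genes. In 9 members replicate 1 of the inhibitor cultures lay more than 0.1 below its group's mean: RPL9A, RPL9B, RPL11A, RPL20B, RPL31A, RPL39, RPL40A, RPL40B and RPL42B. RPL40B was farthest below, with 11.59, 12.02 and 11.91 on inhibitor arrays and 11.84, 11.70 and 11.81 on no-inhibitor arrays.

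Without replicate 1 of the inhibitor cultures, none of these 9 members was called, and the log2 fold change of RPL40B was 0.18 (adjusted p = 0.0715 in limma) rather than 0.06. Over all members that fit called 12 higher and 0 lower, with a median of 0.04. Over all genes the same fit called 1023 higher and 1117 lower, beside 1086 and 1214 with all 6 arrays. It added RPL6B, RPL22A, RPL33B and RPL34A, and lost RPL23A, RPL28 and RPL2B. Leaving out replicate 2 of the inhibitor cultures gave 6 rises, with 862 of all genes called higher and 901 lower. Leaving out replicate 2 of the no-inhibitor cultures gave 5, with 855 of all genes called higher and 977 lower. No fit without 1 array called a member lower. RPL13B, RPL17B, RPL22B and RPL26A were called higher in each of those 6 fits.

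Whether the A and B copies of a gene changed by different amounts was tested on the difference of their log2 signals within each array. The 52 pairs of the whole table whose symbols differ only in a final A or B were fitted in limma, with adjustment over the 52. Of these, 27 were RPL pairs, and all but COX5 and NHP6 were pairs of ribosomal protein genes. The change differed between copies in 4 of the 27 RPL pairs and in 5 of the other 25, at an adjusted p under 0.05. Together that is 9 of all 52, or 17.3%. Exact permutation tests (two-sided) gave 0.1 for each of the 4 RPL pairs, the smallest p that 3 arrays against 3 allow.

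In RPL17 and RPL22 the change of the B copy exceeded that of the A copy. The A-minus-B difference of RPL17 was 0.61, 0.63 and 0.62 on inhibitor arrays and 0.80, 0.76 and 0.78 on no-inhibitor arrays. The change of RPL17A minus that of RPL17B was -0.16 (SE 0.03, adjusted p = 0.00899 in limma), with RPL17A at -0.02 and RPL17B at 0.14. For RPL22 the A-minus-B difference was 1.67, 1.64 and 1.64 with inhibitors and 1.79, 1.81 and 1.78 without. Its change was -0.14 (SE 0.03, adjusted p = 0.0152), and in both pairs the groups did not overlap.

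In RPL26 and RPL34 the change of the A copy exceeded that of the B copy. RPL26A minus RPL26B was 0.27, 0.16 and 0.13 on inhibitor arrays and 0.01, 0.03 and 0.02 on no-inhibitor arrays, a change of 0.17 (SE 0.04, adjusted p = 0.0159 in limma). RPL26B itself had 11.59, 11.76 and 11.73 with inhibitors and 11.71, 11.64 and 11.65 without, which overlapped (log2 fold change 0.03). RPL34A minus RPL34B was 0.01, -0.06 and -0.02 with inhibitors and -0.19, -0.09 and -0.22 without, a change of 0.15 (SE 0.04, adjusted p = 0.0302). Neither RPL34 copy was called alone, at log2 fold changes of 0.11 for RPL34A and -0.03 for RPL34B.

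**Figure D4:**
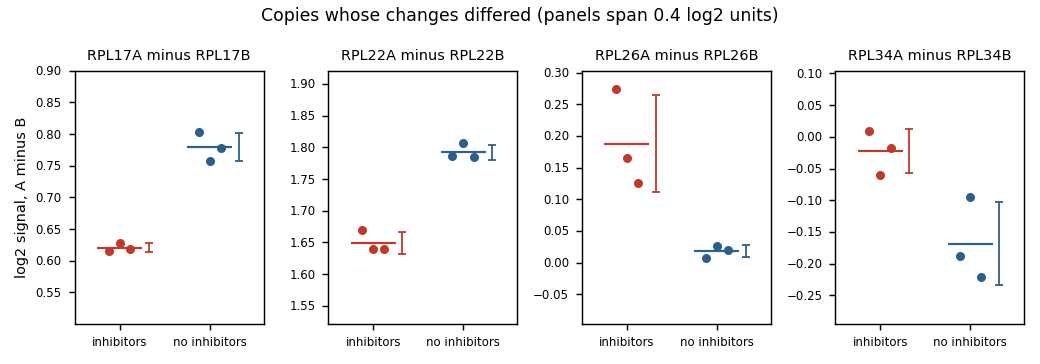
Each panel shows, for 1 pair, the log2 signal of the A copy minus that of the B copy on the 3 inhibitor arrays (left) and 3 no-inhibitor arrays (right), with lines at the means and bars of 1 SD. The groups are apart in all 4 pairs, lower with inhibitors for RPL17 and RPL22 and higher for RPL26 and RPL34.

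Leaving out 1 array at a time gave 0 to 5 RPL pairs, with 0 without replicate 1 of the no-inhibitor cultures and 2 without replicate 3 of the inhibitor cultures. Without that no-inhibitor replicate the adjusted p was 0.0593 for RPL17, 0.0593 for RPL22, 0.0827 for RPL26 and 0.11 for RPL34. RPL17 and RPL26 were called in the other 5 fits, RPL22 in 4 of the 6 and RPL34 in 2. RPL22 was also lost without replicate 3 of the inhibitor cultures (adjusted p = 0.0546), and RPL34 without that replicate, replicate 1 of the inhibitor cultures or replicate 3 of the no-inhibitor cultures (adjusted p = 0.0572, 0.0901 and 0.122).

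In 23 RPL pairs no difference between the copies was called. The 95% interval of the difference in change lay within 1.2-fold for all 27. In 6 of the 27 pairs 1 copy was read by a cross-hybridizing probe set, whose signal may hold both copies. The difference in these 6 may therefore not separate the copies, and none was called, beside 17.3% of all 52 pairs. With the gene-specific set of RPL20B, the RPL20 difference was -0.13 (adjusted p = 0.0265 in limma). Both copies of RPL13 rose, and their changes differed by -0.03 (95% interval -0.12 to 0.06). The smallest differences were those of RPL16, RPL12 and RPL24, at 0.01, 0.01 and -0.01, with 95% intervals of -0.07 to 0.08, -0.08 to 0.10 and -0.09 to 0.07. The A copy had the larger change in 14 pairs and the B copy in 13. Among 30 A copies 4 rose and 0 fell, and among 30 B copies 4 rose and 1 fell. These are 13.3% and 16.7% called, beside 42.2% of all genes.

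**Figure D5:**
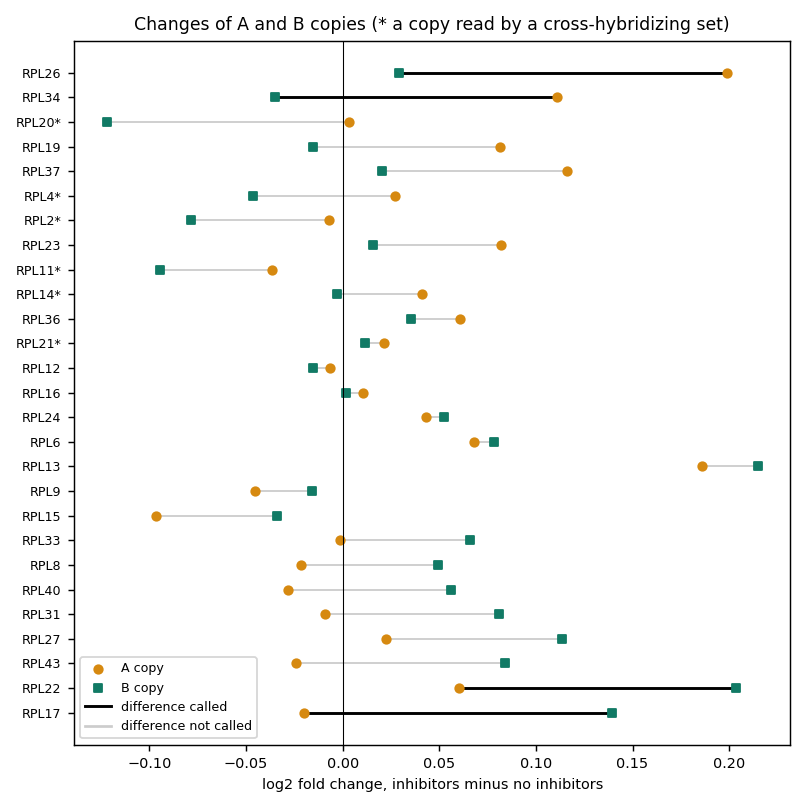
For each of 27 pairs the horizontal axis shows the log2 fold change, inhibitors minus no inhibitors, of the A copy and the B copy, joined by a line, and pairs are ordered by the difference. The 4 pairs whose copies changed by different amounts, RPL26, RPL34, RPL22 and RPL17, are marked.

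Some probe sets can bind transcripts of more than 1 gene. Such cross-hybridizing sets read 12 of the 70 genes, and 58 genes were read by sets without that mark. None of the 12 was called, beside 42.2% of all genes, whichever kind of set read them. Whether the kind of set affects the share called was not tested. The signal of a cross-hybridizing set may hold both copies of a pair. Of 7 genes with both kinds of set, 6 were read here by the cross-hybridizing one. The gene-specific set gave the larger log2 fold change in 5 of the 7, and no set of the 7 genes was called.

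RPL20B, a gene of eL20, gave estimates of opposite sign. Its cross-hybridizing set had 11.92, 12.28 and 12.23 on inhibitor arrays and 12.30, 12.17 and 12.32 on no-inhibitor arrays, with an estimate of -0.12 (adjusted p = 0.396 in limma). Its gene-specific set had 11.81, 11.96 and 11.89 with inhibitors and 11.77, 11.70 and 11.81 without, with an estimate of 0.13 (adjusted p = 0.0936). The change of RPL20A minus that of RPL20B was 0.13 with the first set (adjusted p = 0.157) and -0.13 with the second (adjusted p = 0.0265). With the first set it was 0.17 without replicate 2 of the inhibitor cultures (adjusted p = 0.0171). RPL18B gave 0.00 with its cross-hybridizing set and 0.15 with its gene-specific one, and RPL14B gave 0.00 and 0.11 in that order.

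Of 52 measured small subunit (RPS) genes 5 rose, 2 fell and 45 were not called. That is 13.5% called, beside 42.2% of all genes, and their median log2 fold change was 0.01. RPS14B, whose splicing is limited by its own protein in yeast, had 9.64, 9.67 and 9.72 on inhibitor arrays and 10.37, 10.29 and 10.44 on no-inhibitor arrays. It fell by 0.69 in log2 units (SE 0.04, adjusted p = 0.000578 in limma), a size no large subunit gene reached. None of the 5 genes of the acidic stalk, which recruits translation factors to the large subunit, was called.

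Regulators of ribosomal protein genes gave 1 rise, 3 falls and 9 not called among 13, or 30.8% called, a smaller share than the 42.2% of all genes. Their median log2 fold change was -0.06, beside -0.01 for all genes. HMO1, a high mobility group protein found at ribosomal protein promoters, had 9.59, 9.70 and 9.69 on inhibitor arrays and 9.54, 9.48 and 9.42 on no-inhibitor arrays, and rose by 0.18 (SE 0.05, adjusted p = 0.0285 in limma). YAK1, a kinase that acts on the corepressor Crf1, had 7.87, 7.78 and 7.82 with inhibitors and 8.07, 8.01 and 8.05 without, and fell by 0.22 (SE 0.03, adjusted p = 0.00454). SCH9, a kinase that relays nutrient signals to ribosome production, fell by 0.25 and TOR1, a kinase upstream of it, by 0.19 (adjusted p = 0.0348 and 0.0238). The call of HMO1 was lost without replicate 2 or 3 of either group, that of TOR1 without any inhibitor replicate or no-inhibitor replicate 3, and that of SCH9 without any array but inhibitor replicate 1, at adjusted p between 0.0579 and 0.0998. The activator genes RAP1, IFH1, SFP1 and FHL1 were not called (log2 fold changes -0.03, -0.04, -0.08 and 0.04).

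Genes of proteins that escort single large subunit proteins to the nascent ribosome gave 4 rises and 0 falls among 7, or 57.1% called, beside 42.2% of all genes. Their median log2 fold change was 0.14, beside -0.01 for all genes. RRB1, the chaperone of Rpl3, had 8.81, 8.91 and 8.82 on inhibitor arrays and 8.59, 8.47 and 8.48 on no-inhibitor arrays, and rose by 0.33 (SE 0.05, adjusted p = 0.00402 in limma). SYO1, which carries Rpl5 and Rpl11 into the nucleus, had 7.34, 7.43 and 7.38 with inhibitors and 7.15, 7.15 and 7.09 without, and rose by 0.25 (adjusted p = 0.0035). In both genes the groups stood clear of each other. ACL4, the chaperone of Rpl4, rose by 0.14, and LOC1, which with Puf6 helps to load Rpl43, rose by 0.54 (adjusted p = 0.0082 and 0.00432). SQT1, the chaperone of Rpl10, BCP1, that of Rpl23, and PUF6 were not called, at -0.07, -0.06 and -0.02.

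The client genes of the 4 partners that rose were not called, as were 59 of the 70 members and 3149 of all 5449 genes. RPL3 stood at -0.02, RPL5 at 0.00, RPL11A and RPL11B at -0.04 and -0.09 (-0.02 with the gene-specific set of RPL11B), RPL4A and RPL4B at 0.03 and -0.05, and RPL43A and RPL43B at -0.02 and 0.08. RPL43B had 12.28, 12.32 and 12.32 on inhibitor arrays and 12.35, 12.25 and 12.06 on no-inhibitor arrays, where replicate 3 was low and the groups overlapped. Among clients of BCP1 and SQT1, which were not called, RPL23A rose by 0.08 (adjusted p = 0.0231 in limma). RPL23B and RPL10, at 0.02 and 0.01, were not called. Whether partner and client changes differ was not tested.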

How the data were processed

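Per the labels, the material taken from the 6 cultures was total RNA, the label was biotin and the arrays were Affymetrix. The deposited values are log2 signals per probe set. Per the submitters' processing notes, the authors used GCRMA, a background correction and normalization for such arrays, and limma; the sources used here name no version of either. The lowest deposited value was 2.21. No further normalization was applied.

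Of 10762 probe sets, 5498 named a single S. cerevisiae gene and gave 5449 genes; RefSeq R64 updated 12 symbols. The conditions were compared with limma 3.58.1 (R 4.3.3), group being the only factor, by moderated two-sided tests with Benjamini-Hochberg adjustment over all genes at 0.05. A and B copies were compared by the same model on within-array differences over 52 pairs. Both models were run on simulated data with independent noise. Recovery was required there only for changes larger than any called among the members or RPL pairs.

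The members, lists and pairs were chosen with earlier results of these data known. Genes were named by rule: called members, extremes of change, pairs with the largest or smallest differences, single-copy genes, selected pairs, genes next to the threshold, members whose probe sets disagree in sign, and called genes of the fixed lists; other list genes are given as context, and the client genes and RPL13 pair were chosen after their values were seen. Alternatives were quantile normalization, median centring, a filter on low values, trended robust moderation, array weights, a replicate block, other probe set choices, a stricter threshold and leaving out each array. The number of arrays limits the precision. Sequences and genome positions were not used here.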

Additional observations from a re-analysis of the deposited data

How the results depend on the processing

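No called member, pair or listed gene changed sign under any of 14 alternative fits, and 44 results that were not called lay on both sides of 0. The RPL20 pair, not called, turned: its A minus B change was -0.13 with the lowest probe set per gene, past the threshold. Of 30 called results, 18 lost their call under at least 1 alternative, while RPL13B, RPL22B and RPL26A kept theirs under all 14. The count of 10 members higher was 11 with quantile normalization, 8 with arrays centred on their median or without low signals, and 14 with array weights. Over all genes, 1086 were higher in the main fit and 1251, 1108, 1105 and 1143 in these 4 settings, in that order. Those lower were 1214 in the main fit and 1126, 1324, 1240 and 1309. The single fall, RPL2B, was lost with centred arrays and without low signals (0 lower), and 2 were lower with intensity trend and robust moderation. At an adjusted p under 0.01, as a stricter threshold must lower counts, 3 members were higher, 0 lower, 1 pair differed, and 608 genes in all were higher and 582 lower. Leaving out 1 array at a time gave 5 to 12 members higher, 0 lower, 0 to 5 pairs, medians of -0.00 to 0.04, and 855 to 1023 genes higher and 868 to 1117 lower over the whole table.

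Same-numbered cultures did not deviate in the same direction: their correlations over genes were -0.22, -0.25 and -0.20. Differently numbered cultures gave 0.05 to 0.18. Deviations were taken from the means of groups of 3, which ties these correlations to each other. They therefore cannot decide whether the replicate numbers pair the samples. With the replicate number as a block, 3 members were higher, 0 lower and 2 pairs differed, in a fit with fewer residual degrees of freedom. Over all genes that fit called 774 higher and 810 lower, beside 1086 and 1214 in the main fit.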
